A study of Mus musculus with 4 samples.

Results

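The genes described here are 8 mouse genes for enzymes, and their cofactors, that put methyl groups on DNA or start their removal: Dnmt1, Uhrf1, Dnmt3a, Dnmt3b, Dnmt3l, Tet1, Tet2 and Tdg. They were chosen by gene symbol, taking every deposited read with that symbol and an estimated poly(A) tail above 0 nucleotides (nt). All 8 had reads in all 4 libraries, and they are 8 of 13831 symbols with 833 of 1903919 reads. The study compared J1 embryonic stem cells, a mouse line, of wild-type genotype (WT) with J1 cells in which Mov10, an RNA helicase gene, was knocked out (KO). Both genotypes were cultured with fetal calf serum and the cytokine LIF and received no treatment. The labels name no allele, clone or feeder layer for the knockout. Each genotype had 2 libraries of oligo(dT)-selected RNA, read as native RNA on R9 MinION flow cells, and these are called WT 1, WT 2, KO 1 and KO 2. The labels do not say whether libraries of a genotype came from separate cultures, so p-values measure the spread between these libraries, which may be technical.

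DNA methylation in mammals sits mostly on cytosines in CG pairs. Dnmt3a and Dnmt3b place it on unmethylated DNA (de novo methylation), helped by the catalytically inactive cofactor Dnmt3l, while Dnmt1 copies it after replication where Uhrf1 has bound the half-methylated strand. Tet1 and Tet2 oxidise the methyl group, and Tdg cuts out the oxidised base so that repair can restore an unmethylated cytosine. Embryonic stem cells grown in serum carry high DNA methylation and make all of these proteins.

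The libraries held 351133 to 683239 reads on 11013 to 12065 symbols, and their median tails were 97.3 to 105.8 nt with no order by genotype. The targeted gene Mov10 had 26 and 14 reads in WT against 0 and 1 in KO (log2 difference -5.09; limma voom, Benjamini-Hochberg adjusted p = 0.0553). With other settings its limma adjusted p ranged from 2.06e-06 without a filter on low read numbers to 0.994 without KO 2, and it passed 0.05 in 4 of the 8 that could be fitted, which include scaling to total reads (0.0106) and upper-quartile scaling (0.0185). Of 10 stem cell markers, all had reads, and Pou5f1 stood at 1540 and 1433 reads per 1000000 reads (RPM) in WT and 1251 and 1235 RPM in KO. Their summed level was 9169 and 9444 RPM in WT and 8069 and 6809 RPM in KO. All 9 that could be tested had negative log2 differences (median -0.47), and 0 of 9 passed a limma voom adjusted p of 0.05. In 4 of the 9, both KO libraries lay below both WT libraries, where 15.5% of all genes tested did. Zfp42 had 974 and 627 RPM in WT and 439 and 395 RPM in KO (log2 difference -1.02, limma voom adjusted p = 0.160). The log2 difference was -0.50 for Tdgf1, -0.34 for Dppa5a and -1.23 for Klf4, which was named after its values were seen. The primed-state markers Fgf5, Otx2 and Pou3f1 summed to 31.9 and 22.8 RPM in WT and 5.85 and 2.33 RPM in KO, with Fgf5 at 0 in all libraries. Of 7 fibroblast markers, Col1a1, Col1a2, Col3a1, Acta2 and Postn were at 0 in all 4 libraries, Tagln had 1 read in WT 1, and Thy1 had 9.10 and 5.70 RPM in WT and 11.7 and 14.0 RPM in KO, from 2 to 8 reads. Of 7 primitive endoderm markers 4 were at 0, Sox17 among them, and the list summed to 1.46 to 5.70 RPM per library. Of 5 trophectoderm markers 3 were at 0, Cdx2 among them, and with Eomes at 3, 1, 1 and 1 reads the list summed to 9.10 and 2.85 RPM in WT and 1.46 and 2.33 RPM in KO. The 3 neural markers, with Sox1 at 0, summed to 0 to 5.85 RPM, the 3 mesoderm markers, with T at 0, to 0 to 4.65 RPM, and the 3 markers of 2-cell-like cells to 0 to 5.70 RPM. The part of these marker differences in the values below was not tested. In bulk RNA, fewer cells of a kind and less RNA per cell cannot be told apart.

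Read numbers of the 8 genes were small, from 34 reads for Tet2 to 209 for Dnmt3l over the 4 libraries. A direct RNA read is 1 molecule read from its 3′ end, so RPM was not divided by transcript length, and levels of different genes are compared on this scale of molecules. In limma voom on the 4815 genes that averaged 10 reads or more, 0 genes passed an adjusted p of 0.05 (a background of 0% called), so that 0 of the 7 members tested passed as well. At an unadjusted p of 0.05, 498 genes passed, and limma-trend gave 0 adjusted and 472 unadjusted calls.

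The maintenance pair did not separate the genotypes. Uhrf1 (ENSMUSG00000001228.14), the reader of half-methylated DNA, had 59.2 RPM in WT 1, 96.8 RPM in WT 2, 82.0 RPM in KO 1 and 88.4 RPM in KO 2. Both KO values lay between the WT values, and the log2 difference was 0.05 (SE 0.33; limma voom adjusted p = 0.969). Dnmt1 (ENSMUSG00000004099.16), the maintenance methyltransferase, had 29.6 RPM in WT 1, 82.6 RPM in WT 2, 60.0 RPM in KO 1 and 44.2 RPM in KO 2, with the lowest and the highest value both in WT. Its log2 difference was -0.02 (SE 0.42; limma voom adjusted p = 0.995), so the gap between the WT libraries exceeded any difference between genotypes. Uhrf1 reads outnumbered Dnmt1 reads in all 4 libraries, at 54.0% to 66.7% of the pair.

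All 3 genes of the de novo branch had higher RPM in both KO libraries than in both WT libraries. Dnmt3l (ENSMUSG00000000730.13), the inactive cofactor, had 61.4 RPM in WT 1 and 48.4 RPM in WT 2, against 143.4 RPM in KO 1 and 155.8 RPM in KO 2. The means were 54.9 RPM ± 9.20 for WT and 149.6 RPM ± 8.75 for KO (SD, n = 2 each), so the difference was larger than the spread of either pair. The log2 difference was 1.31 (SE 0.33), with an unadjusted p of 0.000987, which ranked 29 among 4815 genes, and an adjusted p of 0.151 by limma voom. It was the member with the most reads, and the ratio of its pooled read shares, KO over WT, was 2.66 (exact 95% interval 1.90 to 3.80, counting error alone).

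Dnmt3b (ENSMUSG00000027478.15), a catalytic de novo enzyme, had 13.7 RPM in WT 1 and 11.4 RPM in WT 2, against 36.6 RPM in KO 1 and 41.9 RPM in KO 2. These were 6, 4, 25 and 18 reads, and the means were 12.5 RPM ± 1.60 for WT and 39.2 RPM ± 3.73 for KO (SD, n = 2 each). The log2 difference was 1.40 (SE 0.65; limma voom, unadjusted p = 0.0445, adjusted p = 0.470), and the pooled ratio was 3.05 (1.51 to 6.82). Dnmt3a (ENSMUSG00000020661.15), the other catalytic enzyme, had 2 reads in each WT library and 18 and 27 reads in KO 1 and KO 2. In RPM this was 4.55 and 5.70 in WT and 26.3 and 62.8 in KO, where the libraries also lay far apart. The log2 difference was 2.52 (SE 0.87; limma voom, unadjusted p = 0.00942, adjusted p = 0.307) and the pooled ratio was 7.99 (2.91 to 30.6).

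Set against all genes tested, the log2 difference of Dnmt3a stood at the 99.9th percentile, that of Dnmt3b at the 98.4th and that of Dnmt3l at the 98.0th. At an unadjusted p of 0.05, 3 of the 7 members tested were higher in KO, where 5.17% of all genes were. The minimum for testing was set on the mean of all 4 libraries. Dnmt3a (2 and 2 reads in WT, 18 and 27 in KO) and Dnmt3b (6 and 4 against 25 and 18) reached it through their KO reads. Tet2, lower in KO, was left out with a mean of 8.5 reads. The part of this minimum in the count, and in the percentiles of Dnmt3a and Dnmt3b, was not tested. The members were also chosen with earlier results of these data known. Leaving out a library moved the adjusted p-values in both directions. Without WT 1 the limma voom adjusted p was 0.0229 for Dnmt3a and 0.0246 for Dnmt3l, and without WT 2 it was 0.00360 and 0.0469, with the lone WT library assumed to vary like the KO pair; these fits called 93 and 451 genes in all. Without KO 1 the values were 0.348 for Dnmt3a and 0.714 for Dnmt3l, and without KO 2 Dnmt3l had 0.994 and Dnmt3a had too few reads to be tested.

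The start regions of the 3 de novo genes are shown because these genes differed in the same direction. They are the RefSeq sequences (GRCm38.p6, plus strand) from 250 bases before to 50 bases after the first annotated start site, with every CG, the pair that these enzymes methylate, in capitals.
Dnmt3a, chr12:3806730-3807029: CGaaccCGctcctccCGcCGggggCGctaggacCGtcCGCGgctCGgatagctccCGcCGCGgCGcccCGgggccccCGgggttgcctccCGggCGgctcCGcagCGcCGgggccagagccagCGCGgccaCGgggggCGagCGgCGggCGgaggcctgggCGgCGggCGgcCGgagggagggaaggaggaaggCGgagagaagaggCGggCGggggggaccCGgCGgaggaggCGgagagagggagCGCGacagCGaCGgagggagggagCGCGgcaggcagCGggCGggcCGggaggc
Dnmt3b, chr2:153649199-153649498: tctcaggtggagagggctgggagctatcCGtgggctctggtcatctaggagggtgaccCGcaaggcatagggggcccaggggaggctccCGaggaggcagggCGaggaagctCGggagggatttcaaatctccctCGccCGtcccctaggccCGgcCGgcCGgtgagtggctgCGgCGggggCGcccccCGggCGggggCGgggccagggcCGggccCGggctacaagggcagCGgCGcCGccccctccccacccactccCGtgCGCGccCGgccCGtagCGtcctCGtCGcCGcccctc
Dnmt3l, chr10:78042037-78042336: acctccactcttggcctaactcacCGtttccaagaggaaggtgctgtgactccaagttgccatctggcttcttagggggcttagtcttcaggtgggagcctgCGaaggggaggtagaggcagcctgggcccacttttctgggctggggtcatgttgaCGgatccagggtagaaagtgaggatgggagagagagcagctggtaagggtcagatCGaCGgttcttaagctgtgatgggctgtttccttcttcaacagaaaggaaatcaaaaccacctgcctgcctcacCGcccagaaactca
The Dnmt3a window held 46 CG pairs and the Dnmt3b window 30, while the Dnmt3l window held 6, against a median of 7 over 32817 promoter windows of the same length. As many or more were found in 1.65%, 11.7% and 56.4% of all windows. The letters GGGCGG, searched on both strands, occurred 6 times in Dnmt3a, 4 times in Dnmt3b and 1 time in Dnmt3l, and 35.6% of all windows held them. Promoter windows of this length, with or without GGGCGG, were found for all 8 genes. Among the others, the first window held 57 CG pairs for Tet2, 26 for Tdg, 17 for Tet1, 12 for Uhrf1 and 2 for Dnmt1. A later window of Dnmt1 and one of Uhrf1 each held 33. The later windows held 47 and 18 CG pairs for Dnmt3a and 4 and 3 for Dnmt3l. The part of CG content in the read numbers was not tested. Start sites other than the first are annotated for Dnmt3a, Dnmt3l, Dnmt1 and Uhrf1, and reads of this kind do not show which was used.

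Of the genes for removal, Tet1 did not separate the genotypes, Tdg was higher in both KO libraries and Tet2 was lower in both. Tet1 (ENSMUSG00000047146.17), the main methylcytosine dioxygenase of stem cells, had 47.8 RPM in WT 1, 65.5 RPM in WT 2, 67.3 RPM in KO 1 and 60.5 RPM in KO 2. The groups overlapped, with a log2 difference of 0.08 (SE 0.35; limma voom adjusted p = 0.957). Tdg (ENSMUSG00000034674.18), the glycosylase, had 38.7 and 42.7 RPM in WT and 58.5 and 102.3 RPM in KO. Its KO libraries differed from each other by more than KO 1 differed from WT, and the log2 difference of 0.75 (SE 0.39; limma voom adjusted p = 0.528) stood at the 91.0th percentile of all genes. Every Tdg read lay on transcripts that also carry the symbol of the pseudogene Tdg-ps (116 reads against 5), so reads of the 2 could have been split between them.

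Tet2 (ENSMUSG00000040943.12), the second dioxygenase, had 9 and 11 reads in the WT libraries and 9 and 5 in KO 1 and KO 2, or 20.5, 31.3, 13.2 and 11.6 RPM. The means were 25.9 RPM ± 7.67 for WT and 12.4 RPM ± 1.09 for KO (SD, n = 2 each). With a mean of 8.5 reads it was below the minimum for testing. Without that minimum its log2 difference was -1.08 (SE 0.57; limma voom adjusted p = 0.546), and the pooled ratio of 0.497 (0.232 to 1.03) had an interval that reached 1. As a share of Tet1 and Tet2 reads, Tet2 made up 30% and 32.4% in WT (mean 31.2% ± 1.66, SD, n = 2) and 16.4% and 16.1% in KO (16.2% ± 0.166, SD, n = 2). The 95% Wilson intervals of these shares overlapped, from 16.7 to 47.9% in WT 1 and from 8.86 to 28.3% in KO 1. The third family member, Tet3, had 1 read in the whole data set, in KO 1.

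In all, 4 of the 8 members had both KO libraries above both WT libraries, where 25.2% of all genes tested did. Another 1, Tet2, had both below, where 15.5% did, and 3 overlapped. Tet2 was not among the genes tested, and Dnmt3a and Dnmt3b were among them through their KO reads. The members were chosen with earlier results of these data known, so these counts are no test of the set. In WT the order of mean RPM was Uhrf1, Tet1, Dnmt1, Dnmt3l, Tdg, Tet2, Dnmt3b and Dnmt3a. The first 4 of these overlapped with their neighbours in that order, while Dnmt3l and each gene after it lay above the next in both libraries. In KO the order was Dnmt3l, Uhrf1, Tdg, Tet1, Dnmt1, Dnmt3a, Dnmt3b and Tet2, with Dnmt3l above Uhrf1 and Dnmt3b above Tet2 in both libraries. Tet1 lay above Dnmt1 in both KO libraries as well, and the other neighbours overlapped.

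**Figure D1:**
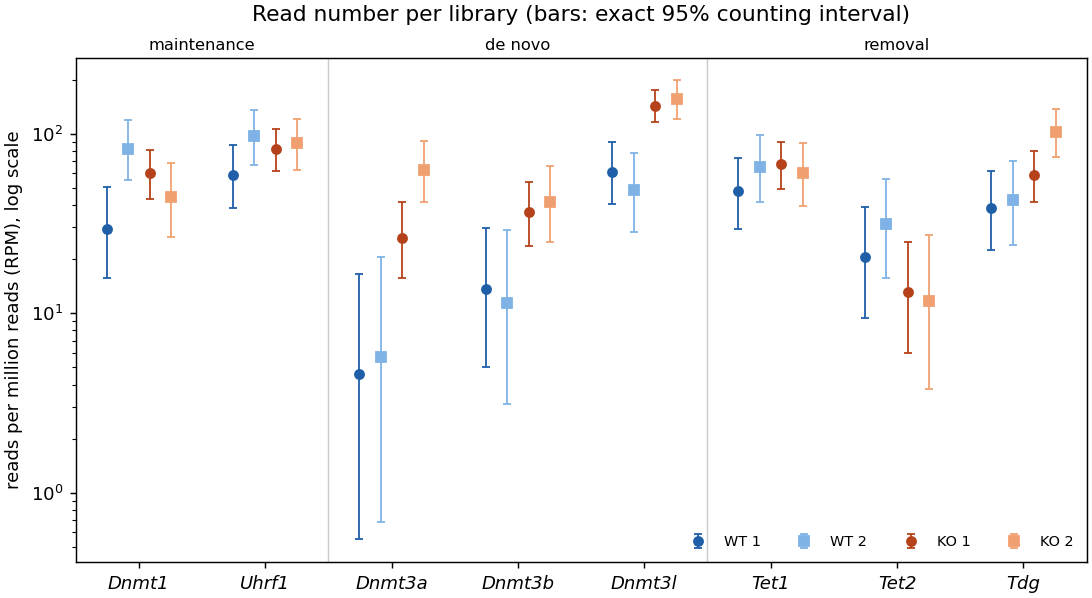
Read number in RPM (log axis) of the 8 genes in each of the 4 libraries, with exact 95% counting intervals as bars. The KO points of Dnmt3a, Dnmt3b, Dnmt3l and Tdg lie above both WT points, those of Tet2 lie below, and those of Dnmt1, Uhrf1 and Tet1 overlap with WT.

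The balance between the branches was taken as the share of Dnmt3a, Dnmt3b and Dnmt3l reads among all reads of these genes, Dnmt1 and Uhrf1. It was 47.3% of 74 reads in WT 1 (95% Wilson interval 36.3 to 58.5%) and 26.7% of 86 in WT 2 (18.5 to 36.9%), against 59.2% of 238 in KO 1 (52.9 to 65.3%) and 66.3% of 169 in KO 2 (58.9 to 73.0%). The KO libraries lay above both WT libraries, with means of 37.0% ± 14.5 for WT and 62.8% ± 4.97 for KO (SD, n = 2 each). The difference was 25.7 percentage points and ranged from 15.5 (without WT 2) to 36.0 (without WT 1). An exact permutation test on 2 against 2 libraries has 6 arrangements and can give no two-sided p under 0.333. Within the de novo branch Dnmt3l made up 77.1% and 73.9% of reads in WT and 69.5% and 59.8% in KO. Dnmt3a made up 25.0% and 33.3% of the reads of the catalytic pair in WT, from 8 and 6 reads, and 41.9% and 60.0% in KO.

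Median tails of the maintenance pair and of Tet1 and Tet2 were longer than those of the de novo genes in every library. The median tail of Tet1 was 166.6 nt in WT 1, 156.3 nt in WT 2, 177.0 nt in KO 1 and 126.7 nt in KO 2. That of Dnmt1 was 156.0, 163.3, 161.0 and 125.5 nt in the same order, and that of Uhrf1 148.3, 160.6, 154.0 and 137.9 nt. Each of these 3 genes was at its lowest in KO 2 and above the median of all reads, 97.3 to 105.8 nt, in every library. Tet2 had the longest tails of the 8 in all 4 libraries, with medians of 253.8, 169.6, 218.6 and 305.6 nt from 5 to 11 reads.

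Dnmt3l, with the most reads, had medians of 115.6, 94.96, 114.5 and 114.2 nt. Dnmt3b had 65.7, 111.2, 98.9 and 121.2 nt, and Dnmt3a had 135.9 and 91.1 nt from 2 reads each in WT and 106.0 and 75.6 nt in KO. These de novo values scattered around the medians of the whole libraries. Tdg, at 132.8, 139.0, 126.3 and 121.8 nt, lay between the branches except in WT 1, where Dnmt3a had 135.9 nt from 2 reads. In 4 of 4 libraries Dnmt1, Uhrf1, Tet1 and Tet2 each had a longer median than each of Dnmt3a, Dnmt3b and Dnmt3l. This division was chosen after the values were seen. Intervals of the medians overlapped in KO 2. The 95% interval there was 79.5 to 165.2 nt for Dnmt1, 84.0 to 158.4 nt for Tet1 and 82.0 to 150.3 nt for Dnmt3b.

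Placed among the 1935 genes that had 20 or more reads in every library, the medians of Uhrf1 stood at percentiles 97.5 to 98.97 and those of Dnmt1 at percentiles 91.5 to 99.1. Those of Tet1 stood at percentiles 92.5 to 99.7 and those of Dnmt3l at percentiles 19.5 to 78.8. The order of mean length was Tet2, Tet1, Dnmt1, Uhrf1, Tdg, Dnmt3l, Dnmt3a and Dnmt3b. Ranges of neighbours over the 4 libraries overlapped except for Tdg and Dnmt3l. Library by library, Tet2 was longer than Tet1, Uhrf1 than Tdg and Tdg than Dnmt3l in all 4.

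**Figure D2:**
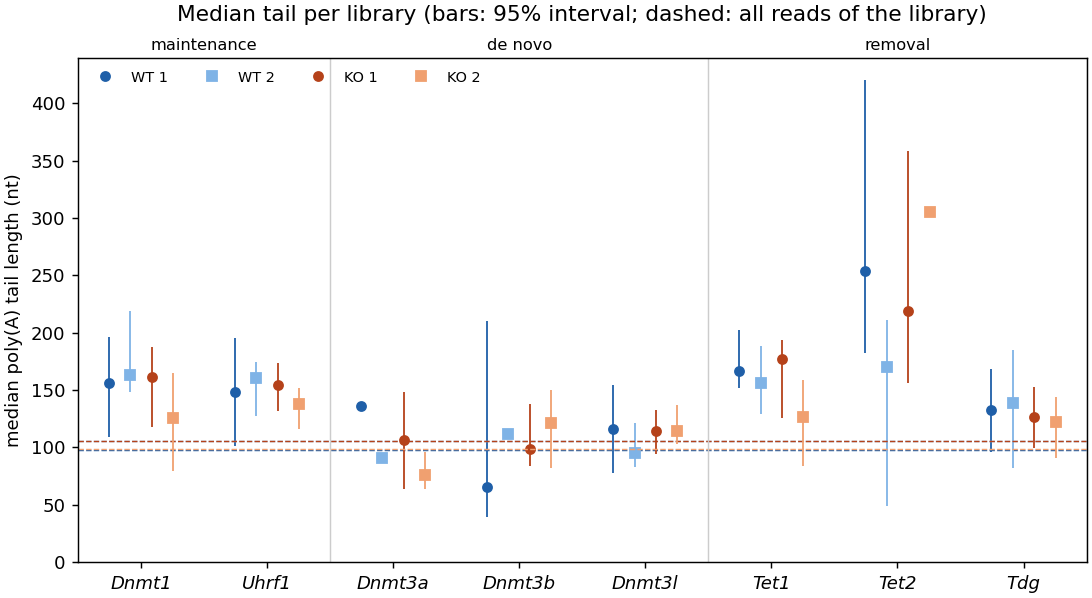
Median poly(A) tail length (nt) of the 8 genes in each library, with 95% intervals of the median as bars where there were enough reads, and dashed lines at the median of all reads of each library. Dnmt1, Uhrf1, Tet1 and Tet2 lie above the dashed lines in all 4 libraries, and Dnmt3a, Dnmt3b and Dnmt3l lie around them.

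Long tails of 150 nt or more gave the same picture per read. They made up 336 of the 833 reads (40.3%, against 21.7% of all reads), and short tails under 30 nt made up 12 (1.44%, against 2.28%). For the maintenance pair the long share was 48.7% and 63.5% in the WT libraries, 54.6% for KO 1 and 36.8% for KO 2. For the removal genes it was 66.0%, 49.0%, 55.8% and 32.0%, and for the de novo genes 28.6%, 17.4%, 25.5% and 18.8%. In every library the de novo genes had the lowest share, and KO 2 had the lowest share of the 4 libraries in both other branches. Over all 8 genes together the long share was 49.6% and 50.4% in WT and 42.6% and 27.0% in KO. The de novo genes made up a larger part of these reads in KO, as given above, and their part in the pooled share was not tested.

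**Figure D3:**
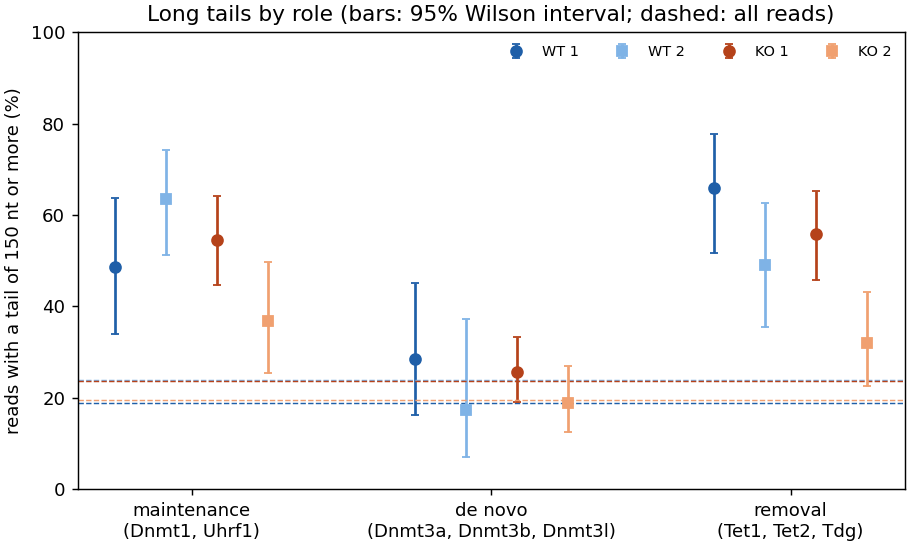
Share of reads with a tail of 150 nt or more (%) for the maintenance, de novo and removal genes in each library, with 95% Wilson intervals as bars and dashed lines for all reads of each library. The de novo genes lie at 17.4 to 28.6%, near the dashed lines, and the other branches at 32.0 to 66.0%.

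Between genotypes, 2 members had enough reads for the tail test. Uhrf1 had a log2 difference of -0.08 (SE 0.20) and Tet1 one of -0.11 (SE 0.24), each with an adjusted p of 0.9998 by limma. Over all 1935 genes tested 0 passed (0% called, 45 at an unadjusted p of 0.05). Tdg was the 1 member whose median tails did not overlap, at 135.9 nt ± 4.38 for WT and 124.0 nt ± 3.22 for KO (SD, n = 2 each). Tails were shorter in both KO libraries for 11.8% of the genes tested and longer in both for 14.7%, and Tdg itself had 15 to 44 reads per library and was below the minimum of 20. With a minimum of 5 reads its log2 difference was -0.13 (SE 0.23; limma adjusted p = 0.99996).

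The genes closest to Uhrf1 in tail length over the 4 libraries were Ddx3x, an RNA helicase gene (root mean square log2 difference 0.03), Vmn2r97 (0.04) and Ppp1cb, a phosphatase subunit (0.07), where the median over 1934 genes was 0.53. Reads with the symbols Ddx3x and Vmn2r97 lay in part on transcripts that carry other symbols too. Those closest to Tet1 were Jarid2, a Polycomb cofactor (0.11), Fubp3 (0.12) and the splicing factor Srsf10 (0.12), with a median of 0.60 over all genes. All 6 comparisons rest on 4 values per gene from the same libraries.

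The deposited table assigned each read to an annotated transcript, and the genes differed in how far their reads were spread. Tet2 reads lay on 2 transcripts, 33 of 34 on 1 of them, and Tet1 reads on 2, while those of Dnmt3b were spread over 9 transcripts with 4 to 8 reads each. Within Tet1 the medians of both transcripts were alike, at 157.3 and 161.6 nt from 84 and 32 reads. The 4 Uhrf1 transcripts had 36 to 40 reads each with medians from 145.1 to 158.1 nt. The Dnmt3l transcripts with over 50 reads had medians of 121.3 nt (79 reads), 104.3 nt (71 reads) and 95.2 nt (52 reads). For Dnmt3a, 17 of 49 reads lay on a transcript that also carries the symbol Psmg1, which had 1 read there. Isoforms of a gene share most of their sequence, so the assignment of single reads among them is uncertain. By the authors' deposited classes, Tet1 and Tet2 are Mov10 targets with m6A, a methyl mark on RNA. Dnmt1, Uhrf1, Dnmt3a and Tdg are targets without m6A, Dnmt3l is a non-target, and Dnmt3b has no class.

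Genes that work with the enzymes showed no common direction. Of 24 partners and regulators, 22 had reads and 13 were tested, with 7 positive log2 differences, a median of 0.16 (-0.01 over all genes) and 0 passing limma voom's adjusted p of 0.05. Trim28, a corepressor that protects imprinted methylation, had 712.1 and 706.3 RPM in WT and 384.9 and 590.7 RPM in KO (log2 difference -0.70, SE 0.26). Both KO libraries lay below WT, and the limma voom adjusted p was 0.341. The replication clamp Pcna (-0.07), the imprint protector Zfp57 (-0.17) and the chromatin remodeller Hells (0.54) overlapped. Both KO libraries were higher for 3 of the 13, where 25.2% of all genes tested were, and lower for 2, where 15.5% were. Named after their values were seen, the 3 are Cdca7, a partner of Hells (0.87), Ogt, which binds Tet proteins (0.89), and Cxxc5 (1.10), and the other lower one beside Trim28 is the replication ligase Lig1 (-0.44). Dnmt3c, a rodent relative of Dnmt3b, had 0 reads. Prdm14, which holds Dnmt3 genes low in naive cells, had 22.8 and 25.6 RPM in WT and 17.6 and 6.98 RPM in KO, from 10, 9, 12 and 3 reads. It was named after its values were seen, both KO libraries were lower, and its mean of 8.5 reads was below the minimum for testing.

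Of 9 genes listed as readers of methylated DNA or relatives of such readers, all had reads. Mbd3 alone reached the minimum and was higher in both KO libraries, with a log2 difference of 0.36 (SE 0.34, limma voom adjusted p = 0.764). Mbd2 had 10 and 5 reads in WT and 14 and 9 in KO, Zbtb38 had 1 and 9 against 15 and 3, and Mbd6 had 5 and 2 against 9 and 7. Of 15 genes listed with base excision repair, among them other glycosylases and the Gadd45 genes, 7 were tested, with a median of -0.21 and 0 calls. Apex1, the endonuclease that cuts the abasic site, was lower in both KO libraries (log2 difference -0.49, SE 0.25; limma voom adjusted p = 0.514), Ung was higher in both (0.63), and Parp1 (0.18) and Gadd45a (-0.21) overlapped. Of 13 genes that supply the methyl donor, 10 were tested, with a median of 0.13 and 0 calls. Shmt2, a mitochondrial one-carbon enzyme, was higher in both KO libraries (0.40), and Tdh (-0.23), Mat2a, the synthetase of the methyl donor (0.33), and Shmt1 (0.05) overlapped.

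**Figure D4:**
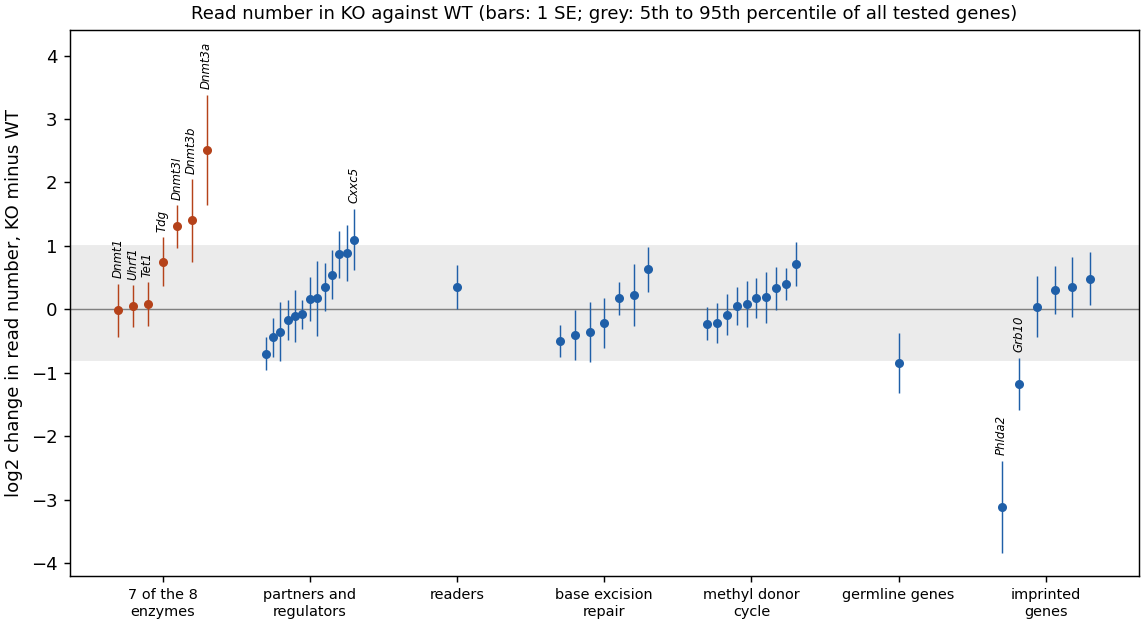
Log2 difference in read number, KO minus WT, for the 7 members and the listed genes that could be tested, ordered by size within each list, with 1 standard error as bars. The grey band holds the 5th to 95th percentile of all 4815 genes, from -0.80 to 1.00. Dnmt3a, Dnmt3b and Dnmt3l lie above it, and of the listed genes those past 1 in either direction are named. Dnmt3a and Dnmt3b reached the minimum for testing through their KO reads, and Tet2, lower in KO, was below it and is not shown.

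Genes whose silencing rests on DNA methylation were given beside the enzymes. Of 15 germline genes that are methylated in somatic cells, 13 had reads and 1 was tested, the tubulin Tuba3a (log2 difference -0.85, SE 0.48; limma voom adjusted p = 0.560). Their summed level was 129.7 and 159.5 RPM in WT and 98.1 and 51.2 RPM in KO, so both KO libraries lay below WT, from 22 to 67 reads per library. The meiotic gene Sycp3 had 13 and 6 reads in WT and 5 and 0 in KO, and Dazl 4 and 9 against 6 and 1, while the helicase Ddx4 had 4 and 3 against 9 and 7. The list thus held members on both sides. Of 18 imprinted genes, 13 had reads and 6 were tested, with a median of 0.17 and 0 calls. Grb10, a growth inhibitor, had 52.3 and 125.3 RPM in WT and 45.4 and 30.2 RPM in KO (log2 difference -1.17, SE 0.41; limma voom adjusted p = 0.318). Snrpn (0.30) and Impact (0.35) overlapped, and Zdbf2 (0.48) was higher in both KO libraries. Phlda2, named after its values were seen, had 26 and 19 reads in WT and 4 and 3 in KO (log2 difference -3.12, SE 0.73; limma voom adjusted p = 0.130). No methylation of DNA was measured in these libraries.

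Dnmt3l, Tet1 and Tdg lie on chromosome 10, Dnmt3a on 12 and Dnmt3b on 2. Among the tested genes nearest on each side (up to 5), 4 of 10 around Dnmt3l were higher in KO, with a median log2 difference of -0.08. Around Dnmt3b it was 5 of 10 (median 0.03), around Dnmt3a 2 of 6 (median -0.46), around Tdg 4 of 10 (median -0.11) and around Tet1 6 of 10 (median 0.17). Whether neighbouring genes had a part in the values of the members was not tested.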

How the data were processed

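RNA of 2 WT and 2 KO libraries was read as native molecules. Per the labels' protocols, the authors selected RNA on oligo(dT) beads and used the SQK-RNA002 kit with DeePlexiCon adapters. Minimap2 2.20 is named per the submitters' processing notes. The basecaller, the genome build, the annotation and the tool that estimated tails are not given in the sources used here. Per the file headers, the deposited table gives a transcript, a symbol, a library and a tail length in nt for each read, with 3 yes-or-no class columns by the authors. Tail length is another kind of unit, neither a count nor a normalized value. The authors' symbols were used as deposited, although 53.4% of reads lay on transcripts with more than 1 symbol. Of 1903922 reads, 3 with a length of 0 or less were left out.

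Reads were counted here per gene and library and tested with limma 3.58.1 voom in R 4.3.3 (0.5 reads added, median-of-ratios scaling, mean of at least 10 reads). Log2 median tails were tested with limma (eBayes with a trend on read number, at least 20 reads in each library). P-values were adjusted by Benjamini-Hochberg over all genes tested, with a threshold of 0.05, and both tests were tested on simulated data. Wilson and exact 95% intervals cover counting error alone. Python 3.11.15 with pandas 2.3.3, numpy 2.4.6 and scipy 1.17.1 handled the tables. By rule, the 8 members and Mov10 are named, with up to 4 genes of most reads per list and any gene past the threshold, and for 2 members the 3 genes of most similar tails. The members and lists were chosen with earlier results of these data known. Alternatives changed scaling, filters, model, tail summary, centring, shared transcripts, the replicate number as a block, and the libraries used. RefSeq tables of GRCm38.p6 gave gene order and promoter sequences.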

Additional observations from a re-analysis of the deposited data

How the results depend on the processing

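Adjusted p-values refer to limma. The 0 tail calls over all genes became 1 with at least 10 reads and ranged from 0 to 2 with 1 library left out, and 0 members were called in any setting. The 0 read number calls became 7 with scaling to total reads, which moved the median log2 difference of all genes to 0.11, 1 with upper-quartile scaling, and 96 without a filter (43 higher, 53 lower), of which 0 were members. With 1 library left out they ranged from 0 to 451, and members called from 0 to 2 (Dnmt3a and Dnmt3l, without WT 1 or without WT 2). The Mov10 calls are those given with its read numbers and, with the replicate block, an adjusted p of 9.87e-05. Residuals of same-numbered libraries had a correlation over genes of 0.01 for tails and 0.02 for read number. A correlation over genes cannot see a shift shared by all genes of a library. It therefore cannot decide whether the numbers pair the libraries. The fit with a replicate block called 66 genes for read number, 1 of them a member (Dnmt3l, adjusted p = 0.0442), and 0 for tails. Without 1 library, Tet1 tails ranged from -0.35 to 0.13 and read number from -0.67 to 0.60 for Dnmt1, -0.22 to 0.31 for Uhrf1 and -0.064 to 0.21 for Tet1. The Dnmt1 value of -0.02 was 0.12 with total reads and 0.037 with upper-quartile scaling. The cause of these changes was not tested. Dnmt3a, Dnmt3b, Dnmt3l and Tdg kept a positive log2 difference in every alternative that could be fitted (2.41 to 3.22, 1.22 to 1.60, 1.06 to 1.56 and 0.41 to 1.19). Without transcripts that carry more than 1 symbol, Dnmt3a and Tdg could not be tested. Depth limits these results: WT held 4 Dnmt3a and 10 Dnmt3b reads in all, and Tet2 stayed below the minimum.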

Other observations

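Otx2, a transcription factor of the primed state that was named after its values were seen, had 13 and 8 reads in WT and 3 and 0 in KO, or 29.6, 22.8, 4.39 and 0 RPM. Its mean of 6 reads was below the minimum for testing.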
